A study of Homo sapiens with 2 samples.

Results

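The galectin genes LGALS1, LGALS3, LGALS7, LGALS7B, LGALS8 and LGALS9 were followed in single cells of WaGa, an established human Merkel cell carcinoma line. Merkel cell carcinoma is a neuroendocrine skin cancer. The 6 genes were taken by name from the 32742 genes of the deposited table. LGALS7 and LGALS7B were put forward because they were among the few abundant genes about 2-fold apart between the libraries, so that difference is described here and not tested. There were 2 groups with 1 library each. One held WaGa cells treated with domatinostat, an inhibitor of class I histone deacetylases, at a dose and for a time that the labels leave out. The other held untreated WaGa cells, with no solvent named. No other agent or genotype was named for either.

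Galectins are small lectins that bind glycans ending in or carrying galactose, above all N-acetyllactosamine. They are made in the cytosol without a signal peptide and leave cells by a route outside the classical secretory pathway. Outside the cell they cross-link glycoproteins and dampen T cell responses, and inside it galectin-3 and galectin-8 gather on damaged lysosomes. Galectin-7, which the copies LGALS7 and LGALS7B both encode, is typical of keratinocytes and other stratified epithelia. It has also been described in p53-induced cells, as PIG1.

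The library labelled treated held 6679 cells and 60160108 unique molecular identifiers (UMIs, each standing for 1 captured transcript), against 4137 cells with 45562976 UMIs in the library labelled untreated. Median depth was 8578 and 11125 UMIs per cell, and 48 barcodes occurred in both libraries. Groups are named by the treatment words in the cell names, since CDKN1A, a gene that deacetylase inhibitors commonly induce, had 39.4 counts per 1000000 UMIs (CPM) in the library labelled treated and 97.9 CPM in the library labelled untreated. These words were not checked against anything else. If they were exchanged, every lower value below would be a higher one and every ratio would turn over. Among Merkel cell markers, KRT20 had 248.0 and 295.5 CPM and CHGA had 1221 and 886.3 CPM in the libraries labelled treated and untreated. All intervals below are 95% intervals for counting error only. With 1 library a group, differences between the libraries have no replicate check, and nothing was tested between conditions. Because the 3′ method counts transcripts at their ends, values are not divided by gene length, and levels of different genes are given without ranking them.

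LGALS7 and LGALS7B carried nearly all galectin counts of these cells, and both stood close to 2-fold lower in the library labelled treated. LGALS7 had 9016 UMIs (149.9 CPM, interval 146.8 to 153.0) in the library labelled treated and 13845 UMIs (303.9 CPM, 298.8 to 309.0) in the library labelled untreated. LGALS7B had 7696 UMIs (127.9 CPM, 125.1 to 130.8) in the library labelled treated and 11804 UMIs (259.1 CPM, 254.4 to 263.8) in the library labelled untreated. Ratios throughout divide the level labelled treated by the level labelled untreated, and came to 0.493 (0.480 to 0.506) for LGALS7 and 0.494 (0.480 to 0.508) for LGALS7B. The bounds lay on both sides of 0.5, so whether either gene counts as 2-fold lower rests on a small margin. Of the 1545 genes averaging 100 CPM or above, 8 (0.518%) stood lower by 2-fold or more and 32 (2.07%) by 1.5-fold or more. For all 12812 genes with at least 100 UMIs those shares were 5.94% and 12.2%, and 0.468% stood higher by 2-fold or more. The contrast chose the pair, and nothing is read from these shares. Among genes averaging 100 CPM or above, next to the pair inside the 2-fold limit were PPAP2C at 0.480 and C1QL1 at 0.466, and just outside it TNNT1 at 0.509 and SCGB2A1 at 0.518. With a pseudocount of 0.1 per 10000 counts, neither copy was 2-fold lower, with log2 ratios of -0.99 for LGALS7 and -0.98 for LGALS7B.

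The copies cannot be treated as independent measurements. The LGALS7 transcript of 466 bases and the LGALS7B transcript of 483 bases differed at 1 of 466 aligned bases in GENCODE's annotation of GRCh38. That base lay 323 bases from the 3′ end of the LGALS7 transcript, and 267 of its 367 windows of 100 bases (72.8%) occurred unchanged in that of LGALS7B. Another LGALS7 transcript, of 565 bases, aligned to it over 258 bases with 14 differences. The annotation the authors counted with is not given in the sources used here. Nor do these sources state how shared reads were divided between the copies, or whether they were counted. LGALS7B took 46.1% (45.3% to 46.8%) of the pair's UMIs in the library labelled treated and 46.0% (45.4% to 46.6%) in the library labelled untreated. The split was thus alike in both libraries within counting error, while the summed level differed. The sum does not depend on how counted reads were divided between the copies, but would lack any reads dropped for matching both. Summed, the pair had 16712 UMIs (277.8 CPM) in the library labelled treated and 25649 UMIs (562.9 CPM) in the library labelled untreated, a ratio of 0.493 (0.484 to 0.503).

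The start regions of the copies are shown because the genes moved alike and because they make the near-identity visible. The windows run from 250 bases before to 50 bases after the start of each gene, from RefSeq on GRCh38.p14. LGALS7 lies on the minus strand (chr19:38773468-38773767) and LGALS7B on the plus strand (chr19:38788950-38789249), so the copies are transcribed away from each other. Capitals mark bases that differ between the windows or lie outside the stretch in which they align.
LGALS7: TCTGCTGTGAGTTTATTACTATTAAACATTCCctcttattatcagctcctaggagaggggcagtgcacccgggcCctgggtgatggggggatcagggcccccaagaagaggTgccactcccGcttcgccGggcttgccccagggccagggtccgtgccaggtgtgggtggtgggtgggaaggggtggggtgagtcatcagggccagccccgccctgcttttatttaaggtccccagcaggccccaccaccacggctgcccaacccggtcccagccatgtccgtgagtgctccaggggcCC
LGALS7B: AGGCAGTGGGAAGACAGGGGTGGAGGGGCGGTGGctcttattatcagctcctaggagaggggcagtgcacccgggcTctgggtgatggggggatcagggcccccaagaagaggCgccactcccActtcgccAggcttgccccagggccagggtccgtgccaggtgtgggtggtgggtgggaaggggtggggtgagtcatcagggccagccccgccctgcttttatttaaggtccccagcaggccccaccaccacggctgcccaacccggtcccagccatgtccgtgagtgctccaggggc
Over 266 aligned bases the windows differed at 4, and the longest unchanged run was 168 bases, which includes both starts. At the 5′ end, 32 bases of the LGALS7 window and 34 of the LGALS7B window did not align, nor did the last 2 of LGALS7. On either strand, both windows held 1 match to TGAGTCA, the motif of AP-1 factors, beginning 61 bases before the start of LGALS7 and 59 before that of LGALS7B. This motif was picked after the sequences were read and occurs in 4.95% of the 35116 RefSeq windows of this length. GGGCGG, a GC box, occurred at 1 place in the LGALS7 window and at 2 places in the LGALS7B window, against 44.95% of all windows. Each window also held 1 match to the p53 consensus decamer, found in 6.63% of windows, and TATAAA, found in 11.5%, occurred in neither. The matches overlapped no other motif searched. They describe letters and do not show binding.

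LGALS1, which encodes the dimeric galectin-1 known for promoting T cell death, was scarce. It had 142 UMIs (2.36 CPM, 1.99 to 2.78) in the library labelled treated and 167 UMIs (3.67 CPM, 3.13 to 4.27) in the library labelled untreated, a ratio of 0.644 (0.511 to 0.810). Of the 5224 genes with at least 100 UMIs that averaged under 10 CPM, 23.4% stood lower by 1.5-fold or more, so a ratio of this size was common at that level. No cell held more than 2 UMIs of LGALS1 in the library labelled treated or 3 in the library labelled untreated. Cells with any numbered 141 of 6679 (2.11%) and 159 of 4137 (3.84%).

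LGALS3, LGALS8 and LGALS9 were close to the limit of detection. LGALS3, the chimera-type galectin-3 that binds lysosomal and cell surface glycoproteins, had 12 UMIs in the library labelled treated and 20 in the library labelled untreated, a ratio of 0.454 (0.203 to 0.976). LGALS8, whose product marks damaged membranes for autophagy, had 13 and 10 UMIs, a ratio of 0.985 (0.399 to 2.51). LGALS9, whose product is a ligand of the T cell receptor TIM-3, had 14 and 17 UMIs, a ratio of 0.624 (0.285 to 1.34). The intervals of LGALS8 and LGALS9 spanned 1, so a difference was not detectable at this depth, and that of LGALS3 ended just below 1. LGALS9 shares long stretches with LGALS9B and LGALS9C, which had 0 UMIs each in the library labelled treated and 2 and 1 UMIs in the library labelled untreated. LGALS8-AS1, an antisense RNA at the LGALS8 locus, had 0 UMIs in both libraries.

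Of all 6 members, 3 had at least 100 UMIs over both libraries. These 3, LGALS1, LGALS7 and LGALS7B, all stood lower by 1.5-fold or more, as did 12.2% of the 12812 genes with that many UMIs, while 3.17% stood higher by that much. The pair counts as 1 measurement in that tally. LGALS1 did not pass 1.5-fold without the 5% of cells with the most UMIs (log2 ratio -0.54), in cells of 7000 to 12000 UMIs (-0.52), in cells called S (-0.08) or G1 (0.10), or with the pseudocount (-0.14), and the count was then 2. Ratios of all 6 genes lay between 0.454 and 0.985.

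**Figure D1:**
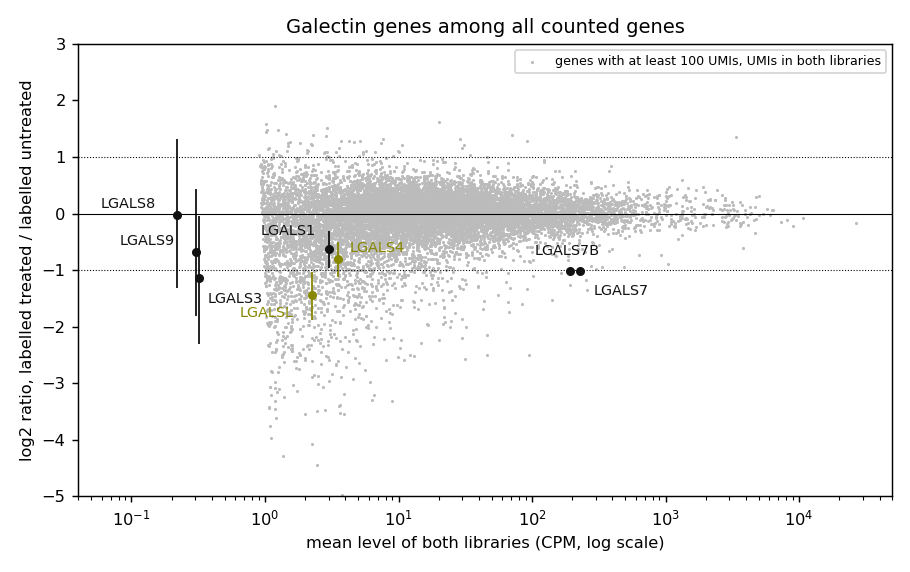
Each point is a gene, with its mean level over both libraries in CPM on a log axis and the log2 ratio of its level labelled treated over labelled untreated. Grey points are genes with at least 100 UMIs and a UMI in both libraries, black points the 6 galectin genes and olive points LGALS4 and LGALSL, with 95% counting intervals as bars. LGALS7 and LGALS7B lie at -1.02 on the log2 scale, among abundant genes with mostly small ratios, while the other galectins sit in the low range where ratios scatter widely.

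Other galectin genes were at most scarce. Of 11 named galectins and galectin-like genes beyond the members, 10 were in the table and 5 of these had 0 UMIs in both libraries, LGALS2, LGALS12, LGALS13, LGALS14 and LGALS16. With 3 counts taken as the limit that a count of 0 allows, such a gene could have up to 0.0499 CPM in the library labelled treated and 0.0658 CPM in the library labelled untreated. The upper bounds of the 95% exact Poisson intervals used elsewhere, as for LGALS8-AS1, are 0.0613 and 0.0810 CPM. LGALS4, an intestinal galectin whose gene neighbours LGALS7B, had 155 UMIs (2.58 CPM) in the library labelled treated and 206 UMIs (4.52 CPM) in the library labelled untreated, a ratio of 0.570 (0.460 to 0.705). LGALSL, a galectin-like gene, had 72 UMIs (1.20 CPM) and 149 UMIs (3.27 CPM), a ratio of 0.366 (0.272 to 0.488). These were the 2 genes of the list with at least 50 UMIs. CLC, the eosinophil galectin-10, had 4 UMIs in the library labelled treated and 1 in the library labelled untreated.

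Most cells of both libraries held galectin-7 transcripts, and the mean, the median and the 90th percentile per cell all stood lower in the library labelled treated. To compare cells at equal depth, each was thinned to 4351 UMIs, which kept 6012 cells of the library labelled treated and 3892 of the library labelled untreated. At that depth, LGALS7 had a UMI in 43.6% (42.4% to 44.9%) of cells labelled treated and 67.3% (65.8% to 68.7%) of cells labelled untreated. LGALS7B had a UMI in 38.6% (37.3% to 39.8%) of cells labelled treated and 62.8% (61.3% to 64.4%) of cells labelled untreated. Unthinned, the shares were 62.5% and 86.5% for LGALS7, and 58.4% and 83.8% for LGALS7B. With 1 cell line there was no cell type lacking the genes in which to gauge free RNA, and its part in these shares was not tested.

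For both copies together, thinned cells labelled treated held a mean of 1.18 UMIs, a median of 1, a 90th percentile of 3 and a highest count of 10. Thinned cells labelled untreated held a mean of 2.44, a median of 2, a 90th percentile of 5 and a highest count of 16. Cells with none made up 36.8% of cells labelled treated and 14.9% of cells labelled untreated. The variance over cells was 1.42 times the mean in the library labelled treated and 1.58 times in the library labelled untreated, where random sampling of a fixed level would give 1. The 1% of unthinned cells with the most galectin-7 UMIs held 5.67% of the pair's UMIs in the library labelled treated and 4.29% in the library labelled untreated. Without those cells the log2 ratio was -1.04, against -1.02 with all cells.

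**Figure D2:**
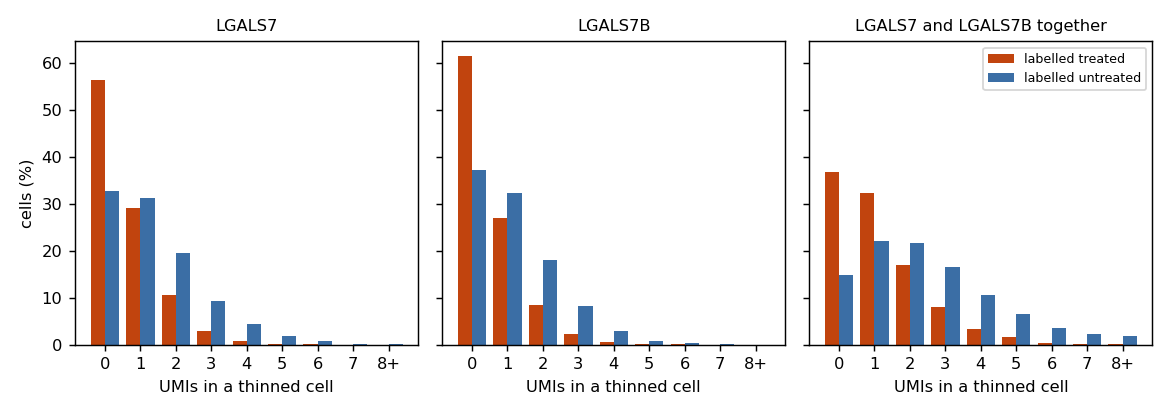
Share of thinned cells, in percent, by the number of UMIs of LGALS7, of LGALS7B and of both together, for the libraries labelled treated and labelled untreated. In each panel cells with 0 UMIs are more frequent in the library labelled treated, and cells with 2 or more in the library labelled untreated.

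Over 5 ranges of depth per cell the pair's ratio ran from 0.455 to 0.537. In cells under 6000 UMIs the pair had 248.5 CPM in the library labelled treated and 473.4 CPM in the library labelled untreated, a ratio of 0.525. In cells of 6000 to 9000 UMIs it had 242.7 and 533.4 CPM, a ratio of 0.455. In cells of 9000 to 12000, of 12000 to 16000 and of 16000 UMIs or more, the ratios were 0.507, 0.510 and 0.537. All 5 depth ranges had the lower level in the library labelled treated, but only cells of 6000 to 9000 UMIs had a ratio under 0.5. The part of depth in the difference was not tested.

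LGALS7 and LGALS7B UMIs tended to occur in the same cells, with low correlations between sparse counts. Across thinned cells their counts had a Pearson correlation of 0.147 over 6012 cells labelled treated and 0.206 over 3892 cells labelled untreated. Thinned cells labelled treated held means of 0.638 LGALS7 and 0.542 LGALS7B UMIs, and those labelled untreated 1.32 and 1.12. With so few UMIs the size of the correlation does not measure how far the levels were shared. Both copies were seen in 18.9% of thinned cells labelled treated and 45.0% of thinned cells labelled untreated. LGALS7B averaged 0.461 UMIs in cells labelled treated without LGALS7 and 0.741 in those with 2 LGALS7 UMIs, and 0.874 and 1.25 UMIs in the same classes of cells labelled untreated. Among cells with 2 or more UMIs of the pair, the variance of the split between the copies was 1.08 times the binomial value in the library labelled treated and 1.04 times in the library labelled untreated. The split between the copies thus varied little more from cell to cell than sampling gives. The transcripts are nearly identical, and the sources used here do not state how shared reads were divided between the copies or whether they were counted. Neither the shared occurrence nor the split can therefore be read as the behaviour of 2 separate genes.

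**Figure D3:**
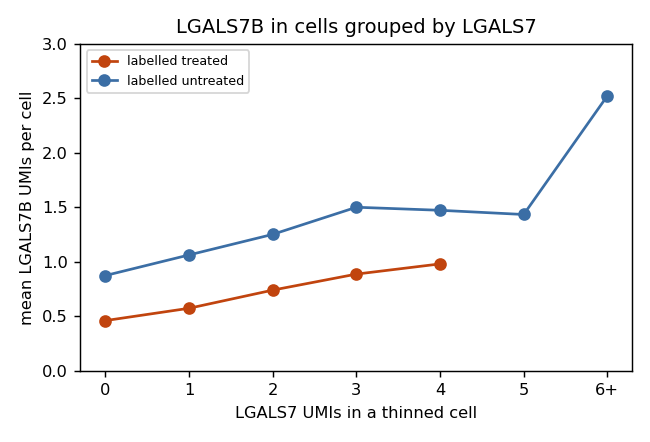
Mean number of LGALS7B UMIs per thinned cell (vertical axis) in cells grouped by their number of LGALS7 UMIs (horizontal axis), for the libraries labelled treated and labelled untreated; classes under 20 cells are left out. The mean is higher in cells with 2 LGALS7 UMIs than in cells with none, 0.741 against 0.461 labelled treated and 1.25 against 0.874 labelled untreated.

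The pair was lower in the library labelled treated in cells of each cell cycle call, and least so in G2/M. In cells called G1 the pair had 235.7 CPM (218.4 to 253.9) in the library labelled treated and 499.8 CPM (478.0 to 522.4) in the library labelled untreated, a ratio of 0.472 (0.432 to 0.514). In cells called S it had 298.0 CPM (291.4 to 304.8) in the library labelled treated and 655.4 CPM (645.1 to 665.8) in the library labelled untreated, a ratio of 0.455 (0.442 to 0.467). In cells called G2/M it had 266.5 CPM (260.6 to 272.4) in the library labelled treated and 456.5 CPM (446.4 to 466.7) in the library labelled untreated, a ratio of 0.584 (0.566 to 0.602). Cells called S had the highest level within each library, and the step between S and G2/M was larger in the library labelled untreated. The counting intervals of the S and G2/M ratios did not overlap, but the difference between phases has no replicate and was not tested.

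Cells called G1, S and G2/M made up 6.72%, 47.0% and 46.3% of thinned cells labelled treated, and 11.3%, 55.0% and 33.7% of thinned cells labelled untreated. The higher of the S and G2/M scores lay within 0.05 of the G1 border in 10.3% of cells labelled treated and 12.3% of cells labelled untreated. LGALS1 had 45 UMIs (1.53 CPM) in cells called G2/M of the library labelled treated and 71 UMIs (4.12 CPM) in those of the library labelled untreated, a ratio of 0.372 (0.2503 to 0.548). In cells called S its ratio was 0.945 (0.690 to 1.29), and in cells called G1 it was 1.07 (0.368 to 3.02) from 8 and 10 UMIs. The LGALS1 ratio was thus lowest in cells called G2/M, a difference between phases that was not tested.

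**Figure D4:**
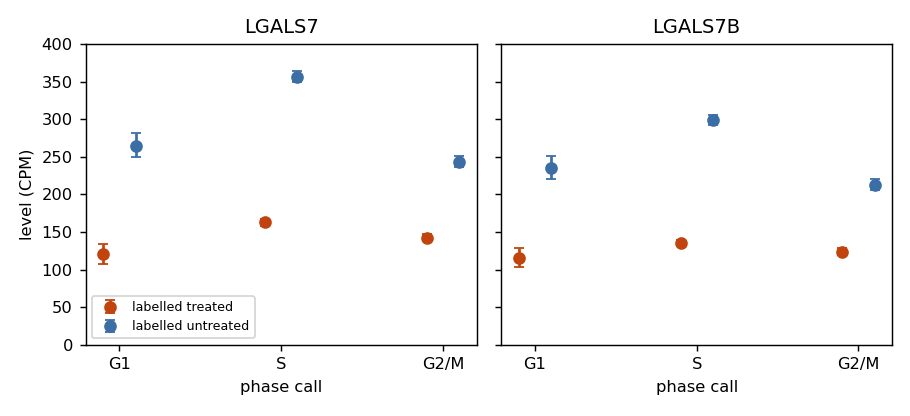
Level of LGALS7 and LGALS7B in CPM in cells called G1, S and G2/M, for the libraries labelled treated and labelled untreated, with 95% counting intervals as bars. LGALS7 in cells called S has 162.7 CPM in the library labelled treated against 356.5 CPM labelled untreated; cells called G2/M have 142.5 and 243.4 CPM.

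The genes whose counts went most with galectin-7 across cells were CCER2, DBI, SCGB2A1, NEAT1 and CYBA. Correlations with the summed pair were taken over thinned cells within each library, for 4979 genes with at least 1000 UMIs in each library, and ranked by their mean. All were weak, and each comes from the cells of 1 library. CCER2, a gene of a coiled-coil protein, had 0.144 in the library labelled treated and 0.276 in the library labelled untreated. DBI, an acyl-CoA binding protein gene, had 0.123 and 0.184, and SCGB2A1, a secretoglobin gene, had 0.119 and 0.171. The 99th percentile of the mean correlation over all ranked genes was 0.0815. Ranked against LGALS7 alone, the first 5 were CCER2, DBI, SCGB2A1, TNNT1 and NEAT1. Against LGALS7B alone they were CCER2, RBP7, SCGB2A1, CYBA and MT-CO3. CCER2 came first in all 3 rankings. Its level was 3037 CPM in the library labelled treated and 4611 CPM in the library labelled untreated, a ratio of 0.659. No gene reached a mean correlation above 0.0403 with LGALS1 or 0.0438 with LGALS3, for which PPIB and MCOLN1 came first, and from such sparse counts nothing is read.

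CCER2 lies near the galectin-7 genes, with 8 annotated genes between it and LGALS7B, 6 of them protein-coding, on chromosome 19 in RefSeq's annotation of GRCh38.p14. CAPN12, a calpain gene next to LGALS7 among protein-coding genes, had 3.08 CPM in the library labelled treated and 6.56 CPM in the library labelled untreated, a ratio of 0.469 (0.388 to 0.565). On the other side, LGALS4 had a ratio of 0.570. ECH1, a gene of the enoyl-CoA hydratase and isomerase family, had 149.8 and 230.6 CPM, a ratio of 0.649. HNRNPL, an RNA-binding protein gene, followed at 1.26, and RINL, the deacetylase gene SIRT2 and NFKBIB at 0.449, 0.668 and 0.688. The neighbours thus did not all move one way: ACTN4 had a ratio of 1.10 and EIF3K of 0.991. Of the nearest 15 protein-coding genes with at least 100 UMIs on either side, 5 before and 5 after the pair stood lower by 1.5-fold or more and 0 stood higher by as much. Over all 927 such genes of chromosome 19, 138 (14.9%) stood lower by that much and 32 higher. Several of the lower neighbours, such as CAPN12 and LGALS4, averaged under 10 CPM. Of all genes with at least 100 UMIs at that level, 23.4% stood lower by 1.5-fold or more. Strand use in the counting is not given, and genes that overlap here were not checked for shared reads. This wider stretch was chosen after the values near the pair were seen. Around LGALS1, PDXP had a ratio of 2.40 (1.68 to 3.50), SH3BP1 of 0.647, GGA1 of 1.14, NOL12 of 1.15 and TRIOBP of 0.984.

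**Figure D5:**
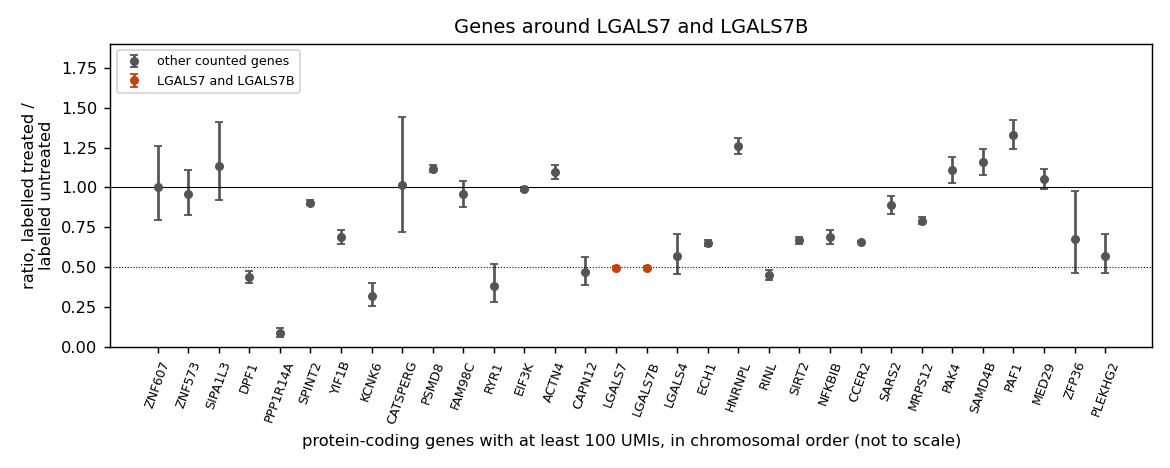
Ratio of the level labelled treated over labelled untreated, with 95% counting intervals, for LGALS7, LGALS7B and the 15 nearest protein-coding genes with at least 100 UMIs on each side, in chromosomal order and not to scale. Both copies lie at 0.49, between CAPN12 at 0.469 and LGALS4 at 0.570, and genes above 1 such as HNRNPL at 1.26 lie within the same stretch.

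Most keratinocyte genes, the company in which galectin-7 is usually found, had few or no UMIs. Of 26 keratinocyte markers 9 had at least 50 UMIs, and 6 had 0 UMIs in both libraries, among them the basal transcription factor gene TP63 and the cornified envelope genes IVL and LOR. The summed level of the list was 639.4 CPM in the library labelled treated and 732.3 CPM in the library labelled untreated. Most of it was KRT10, at 313.2 and 310.6 CPM, and PERP, at 228.9 and 242.8 CPM. Of the 9 measured markers 5 stood lower by 1.5-fold or more and 0 higher, where 14.9% of the 13958 genes with 50 or more UMIs stood lower by that much and 3.77% higher. The same limits of 50 UMIs and 1.5-fold, and the same shares over all genes, hold for the lists that follow. SFN, which encodes the epithelial 14-3-3 protein sigma, had 42.9 CPM in the library labelled treated and 88.3 CPM in the library labelled untreated, a ratio of 0.485 (0.462 to 0.510). S100A2 had a ratio of 0.0999 and SERPINB5 of 0.379, while KRT10 stood at 1.01. SFN ranked 15th of the 4979 genes by correlation with the pair, at 0.0785 in cells labelled treated and 0.138 in cells labelled untreated. The part of these genes' shared direction in the galectin-7 difference was not tested.

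The simple-epithelium keratins of Merkel cells stood lower as well. KRT8 had 473.2 CPM in the library labelled treated and 786.9 CPM in the library labelled untreated, a ratio of 0.601, and KRT18 and KRT19 had ratios of 0.525 and 0.520. KRT8 ranked 9th and KRT18 27th by correlation with the pair, KRT19 1579th. The other Merkel cell and neuroendocrine genes went both ways. SOX2, CHGA and ISL1 had ratios of 1.57, 1.38 and 1.20, CHGB, NCAM1 and ENO2 of 0.738, 0.830 and 0.939, and ATOH1, SYP and INSM1 of 1.02, 1.06 and 1.08. Across the Merkel cell list 3 of 13 measured genes passed 1.5-fold downward and 1 upward, with a median log2 ratio of -0.09. Over all genes with 50 or more UMIs, 14.9% passed it downward and 3.77% upward. CHGA had correlations of 0.0577 and 0.0888 with the pair, and SOX2 of -0.0441 and -0.0932, in cells labelled treated and untreated.

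Markers of cell types that carry other galectins were scarce. The 7 fibroblast markers summed to 20.2 CPM in the library labelled treated and 36.5 CPM in the library labelled untreated, with 3 of 3 measured genes past 1.5-fold downward, THY1 at 0.309, COL1A1 at 0.315 and DCN at 0.661, and COL3A1 at 0 UMIs. The 7 myeloid markers summed to 1.58 and 2.98 CPM, with CD14 at 0.413 and CD68 at 0.633 and with ITGAM and TYROBP at 0. T cell markers summed to 0.0332 and 0.0878 CPM, with no gene measured and CD3D and CD2 at 0. B cell markers summed to 4.49 and 9.88 CPM, with CD79A at 0.289 and CD79B at 0.580 and with MS4A1 at 0. Melanocyte markers summed to 0.981 and 4.70 CPM, with PMEL at 0.113 and MITF at 0.372 and with TYR at 0. Endothelial markers summed to 6.60 and 6.56 CPM, nearly all of it CLDN5 at a ratio of 1.01, with CDH5 and KDR at 0. Of all 13958 genes with 50 or more UMIs, 14.9% passed 1.5-fold downward and 3.77% upward. The measured genes of these lists other than DCN averaged under 10 CPM. Of the 5224 genes with at least 100 UMIs averaging under 10 CPM, 23.4% stood lower by 1.5-fold or more. Lower ratios were thus common at that level. The part of such cells in the galectin values was not tested.

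Among p53-induced genes, a list of PIG genes with CDKN1A added, 3 of 6 measured genes passed 1.5-fold downward and 0 upward. Of the 13958 genes with 50 or more UMIs, 14.9% stood lower by that much and 3.77% higher. The median log2 ratio of the list was -0.85, against -0.0219 over all genes with at least 50 UMIs. LITAF had 10.2 CPM in the library labelled treated and 26.3 CPM in the library labelled untreated, a ratio of 0.389 (0.353 to 0.430). TP53I11, with 23 and 93 UMIs, had 0.187. CDKN1A, 1 of the 3 but not a PIG gene, had 0.403 and is the gene set against the labels above. PRODH, a proline dehydrogenase gene, had a ratio of 1.24, TP53I3 of 0.770 and EI24 of 1.01. With at least 200 UMIs required, the median was -0.38. Across cells, CDKN1A had a correlation of 0.0305 with the pair in cells labelled treated and 0.0304 in cells labelled untreated.

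Genes of glycoproteins that galectins bind had ratios mostly near 1. Of 12 measured binding partners 10 had ratios above 1, against 47.4% of all genes with 50 or more UMIs, but for LGALS3BP, LAMP2, NRP1, FN1 and LAMA5 the interval spanned 1. In the list 1 gene passed 1.5-fold upward and 0 downward, with a median log2 ratio of 0.0756, or 0.0219 over genes with any UMI in both libraries. ALCAM, under the limit with 12 and 24 UMIs, had a ratio of 0.379 (0.173 to 0.787). LAMB1, a laminin chain gene, had 24.2 CPM in the library labelled treated and 14.9 CPM in the library labelled untreated, a ratio of 1.62 (1.48 to 1.78). MUC1, a mucin bound by galectin-3, had a ratio of 1.47, and the integrin gene ITGB1 of 1.25. LGALS3BP, whose product binds galectin-3, had 36.6 and 36.2 CPM, and the lysosomal gene LAMP1 had 67.4 and 63.2 CPM. BSG and CD44, both surface glycoproteins, had ratios of 0.854 and 0.934. The immune receptor genes PTPRC, SPN, CD7 and HAVCR2, which encodes TIM-3, had at most 5 UMIs in either library.

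Enzyme genes for galectin ligands had ratios on both sides of 1. Of 26 measured genes of N-glycan branching and N-acetyllactosamine synthesis 2 passed 1.5-fold upward and 1 downward, with a median log2 ratio of 0.0669. Over all genes with 50 or more UMIs, 3.77% passed it upward and 14.9% downward. MAN2A2, a Golgi mannosidase gene, had 8.58 CPM in the library labelled treated and 5.03 CPM in the library labelled untreated, a ratio of 1.71 (1.46 to 2.003). The galactosyltransferase genes B4GALT2 and B4GALT4 had ratios of 1.24 and 0.756, GCNT1 and GCNT2, which branch O-glycans and poly-N-acetyllactosamine, of 0.636 and 0.706, and B3GNT8 of 1.34. MGAT5, the branching enzyme gene best known for raising galectin binding, had 8.06 CPM in the library labelled treated and 9.44 CPM in the library labelled untreated.

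Sialic acid caps in certain linkages mask the galactose that galectins bind. Of 13 measured sialylation genes 1 passed 1.5-fold downward and 0 upward, against 14.9% and 3.77% of all genes with 50 or more UMIs. The median log2 ratio was -0.15, but 0.02 among genes with at least 200 UMIs. ST6GAL1, whose α2,6 linkage hinders galectin-1 binding, had 23 UMIs (0.382 CPM) in the library labelled treated and 61 UMIs (1.34 CPM) in the library labelled untreated, a ratio of 0.286 (0.169 to 0.468). NANS, a sialic acid synthase gene, had 130.5 and 193.5 CPM, a ratio of 0.674, and the transporter gene SLC35A1 a ratio of 0.760. ST3GAL5 and NEU1 had ratios of 1.07 and 1.18.

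Of 18 measured genes that answer lysosomal damage alongside galectin-3 and galectin-8, 1 passed 1.5-fold upward and 2 downward, with a median log2 ratio of -0.0135. Over all genes with 50 or more UMIs, 3.77% passed it upward and 14.9% downward. GABARAP, which encodes an autophagosome protein, had 41.1 CPM in the library labelled treated and 18.4 CPM in the library labelled untreated, a ratio of 2.24 (2.07 to 2.42). MAP1LC3A, of the same family, had a ratio of 0.631 and TFEB, a transcription factor of lysosome genes, of 0.531. NBR1 and PDCD6IP had ratios of 1.38 and 1.27, and OPTN of 0.758. CALCOCO2, the autophagy receptor that binds galectin-8, and TRIM16, which binds galectin-3, had ratios of 0.926 and 0.828.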

How the data were processed

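WaGa cells were profiled singly by 10x Genomics 3′ Chromium libraries, per the labels' protocols. Cell Ranger, Seurat and hg19 are named in the submitters' processing notes; the annotation and any cell filter are not given in the sources used here. Values were deposited by the authors on a natural log scale, ln(1 + counts per 10000 counts of the cell), for 32742 genes and 10816 cells. In each cell the smallest value above 0 was taken as 1 UMI; 100% of values were then whole within 1e-06. No cell filter was added and doublets were not called. UMIs were summed per library. Ratios are the library labelled treated over the library labelled untreated, with exact Clopper-Pearson intervals on the split of a gene's UMIs; levels have exact Poisson intervals. Thinning drew 4351 UMIs per cell, the 10th percentile of the shallower library, leaving out 667 cells labelled treated and 245 labelled untreated. Phases were called with scanpy 1.11.5 from 41 S and 54 G2/M genes. Computation used Python 3.11.15, numpy 2.4.6 and scipy 1.17.1, and steps were tested on simulated data.

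The members, the 6 gene lists and the 8 marker lists were chosen with earlier results of these data known. Named genes are the members, up to 3 highest and 3 lowest ratios of each list by the interval bound nearest to 1 among genes with at least 50 UMIs, the 5 genes most like a member, and 5 annotated neighbours a side. For likeness the rule covered LGALS7, LGALS1 and LGALS3; the rankings for LGALS7B and the sum, other genes named from the lists, the genes next to the 2-fold limit, and RINL, SIRT2 and NFKBIB were added after values were seen.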

Additional observations from a re-analysis of the deposited data

How the results depend on the processing

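No paired analysis was possible because each group had 1 library, and for the same reason no library could be left out. The log2 ratio of LGALS7 and LGALS7B together was below 0 in all 12 alternatives, from -1.14 to -0.78. It was -1.02 with all cells, -1.08 in cells called G1, -1.14 in cells called S, -0.78 in cells called G2/M and -1.05 in cells of 7000 to 12000 UMIs, a window added after seeing the data. The cause of these shifts was not tested. Members at least 2-fold lower numbered 2, but 0 with the pseudocount, which pulls ratios toward 1 by construction, and 1 in cells called G2/M, where that gene was LGALS1. Without the 1% of cells with the most UMIs of the gene it was 3, with LGALS1 at -1.06 against -0.63 in all cells; nearly every cell with LGALS1 holds 1 UMI, so this leaves out many of its cells. For LGALS1 the log2 ratio was 0.10 among G1 cells, from 8 and 10 UMIs, and -0.14 with the pseudocount. For LGALS9 the log2 ratio was 0.066 in cells of 7000 to 12000 UMIs, where it had few UMIs. That of LGALS8 ranged from -0.44 to 0.82. Without the 1% of cells with the most UMIs of the gene, no UMI of LGALS3, LGALS8 or LGALS9 was left in at least 1 library, so no ratio could be formed.

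The share of cells with LGALS7 was 68.0% labelled treated and 86.3% labelled untreated when thinned to 8578 UMIs, and 62.5% and 86.5% unthinned. For LGALS7B it was 63.4% and 83.8%, and 58.4% and 83.8%. Of all genes, 1567 were at least 1.5-fold lower, 619 with a minimum of 500 UMIs and 4411 with none beyond 1 UMI in each library. At least 1.5-fold higher were 406, 231 and 1604, at least 2-fold lower 761, 223 and 2885, and at least 2-fold higher 60, 22 and 622. Depth limits LGALS3, LGALS8 and LGALS9, with at most 20 UMIs a library.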
